A study of Homo sapiens with 8 samples.

Results

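CYBA, CYBB, NOX1, NOX4, DUOX1 and DUOX2, genes of the NADPH oxidases, were examined in the gefitinib-sensitive lung adenocarcinoma line PC9 and in PC9R, a line selected from it. They were taken as 6 listed genes of the 24630 genes and unmatched accessions in the count tables, by summing the counts of their 11 RefSeq accessions in each RNA library and by reading the peaks of open chromatin and of H3K4me2 around their transcription start sites (TSS). The list was drawn up with the RNA difference of CYBA between the lines already known, so the RNA values of these 6 genes are given as a description, and no test of them is used as support.

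The study comprised 8 samples. PC9 carries an activating EGFR mutation, and PC9R was obtained by screening PC9 under gefitinib, an EGFR kinase inhibitor, for 1 to 2 weeks. Both lines were grown in DMEM and used at passages 8 to 12, and the labels name no clone of either. Each line had 2 RNA-seq libraries, 1 list of DNase hypersensitive sites (DHS), which mark open chromatin, and 1 list of H3K4me2 peaks, a histone mark of promoters and enhancers. Drug exposure is given for PC9R alone, so the effect of the drug and that of the line cannot be told apart. The labels do not state that the paired RNA libraries of each line were grown separately. P-values therefore reflect only how much these libraries differ, and that spread may be technical.

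NADPH oxidases pass electrons from NADPH across a membrane to oxygen, which yields superoxide or hydrogen peroxide. CYBA encodes p22phox, the small membrane subunit that stabilizes the catalytic subunits encoded by NOX1, CYBB (gp91phox, also called NOX2), NOX3 and NOX4. NOX5, DUOX1 and DUOX2 work without p22phox, and the dual oxidases need the maturation factors DUOXA1 and DUOXA2 instead. CYBB is best known from phagocytes, NOX1 from colon epithelium, NOX4 from kidney and vessel wall, and the dual oxidases from thyroid and airway epithelium.

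The promoters of CYBA and CYBB are of opposite kinds, and they are shown because these were the only listed genes with enough reads to be tested. The first sequence is the 250 bases upstream of the CYBA TSS (chr16:88717462-88717711, hg19, minus strand), and capitals mark the 141 bases inside an H3K4me2 peak of PC9. The second is the whole H3K4me2 peak of PC9R upstream of CYBA (chr16:88717952-88718166, minus strand), with CpG in capitals. The third is the 250 bases upstream of the CYBB TSS (chrX:37639062-37639311, plus strand), with each CCAAT or ATTGG in capitals. All are written 5′ to 3′.
CYBA upstream: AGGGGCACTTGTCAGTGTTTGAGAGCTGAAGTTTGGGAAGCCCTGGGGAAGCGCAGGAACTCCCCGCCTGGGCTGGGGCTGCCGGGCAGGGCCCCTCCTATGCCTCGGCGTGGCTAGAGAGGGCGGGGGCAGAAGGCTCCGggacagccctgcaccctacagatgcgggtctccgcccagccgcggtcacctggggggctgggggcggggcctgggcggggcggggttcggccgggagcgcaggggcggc
CYBA PC9R H3K4me2 peak: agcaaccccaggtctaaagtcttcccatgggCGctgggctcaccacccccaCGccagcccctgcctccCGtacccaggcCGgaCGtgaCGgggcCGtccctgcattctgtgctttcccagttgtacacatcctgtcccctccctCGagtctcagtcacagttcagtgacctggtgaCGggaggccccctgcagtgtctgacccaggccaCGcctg
CYBB upstream: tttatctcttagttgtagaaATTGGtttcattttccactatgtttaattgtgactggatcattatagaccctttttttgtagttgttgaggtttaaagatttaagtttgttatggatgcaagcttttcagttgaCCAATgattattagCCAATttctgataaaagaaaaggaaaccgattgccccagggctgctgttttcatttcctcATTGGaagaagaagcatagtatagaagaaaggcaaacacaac

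The CYBA sequence had 73.6% GC and 18 CpG, against medians of 58% and 11 over the 35116 upstream sequences of the same length in the RefSeq table. It held 6 GC boxes (GGGCGG or its reverse complement CCGCCC, overlaps counted), 1 in the capitals and 5 in the lower-case bases next to the TSS. At least 1 GC box was found in 42.6% of all such sequences. No base of it lay in an H3K4me2 peak of PC9R. The PC9R peak further upstream was 215 bases long and held 10 CpG.

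The CYBB sequence had 34.0% GC, 1 CpG and no GC box, and it held 4 copies of CCAAT or its reverse complement ATTGG. That motif occurred in 32.0% of all sequences. NOX1 was equally poor in CpG (38.4% GC, 1 CpG), while NOX4 (72.0% GC, 23 CpG), DUOX1 (72.8%, 30 CpG) and DUOX2 (59.6%, 15 CpG) were richer than the median. DUOX2 had the single TATAAA of the 6, a motif found on either strand in 10.7% of all sequences. All 6 upstream sequences were identical in hg19 and in the RefSeq table of GRCh38.p14. A motif match describes these letters and does not show that a factor binds.

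CYBA RNA was abundant in PC9 and almost absent from PC9R. The gene (chromosome 16, 88709697 to 88717461, minus strand) had 6814 and 1060 counts in the first and second libraries of PC9, against 12 and 0 in those of PC9R. As CPM (counts scaled to library size, with TMM factors), these were 213.6 and 70.7 in PC9, and 0.341 and 0 in PC9R. Both PC9 libraries lay far above both PC9R libraries, as the plot of the oxidase genes by library shows.

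The mean was 142 ± 101 CPM in PC9 and 0.171 ± 0.241 CPM in PC9R (SD, n = 2). Over both libraries the count ratio was 727 (95% exact counting interval 416 to 1408), and over the first libraries alone it was 626 (358 to 1211). Over the second libraries PC9 was at least 397-fold higher, with a floor of 3 counts in the PC9R library. These intervals cover counting error only. The edgeR log2 fold change (PC9R minus PC9) was -9.43 (SE 1.30), and -9.55 (SE 0.43) in a fit with library number as a batch term. Bulk RNA does not tell fewer cells with CYBA RNA from less CYBA RNA per cell.

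CYBA was 1 of the 32 genes among 12660 (0.253%) that passed the edgeR test at an adjusted p under 0.05, and 1 of the 8 that were lower in PC9R (0.0632%, with 0.19% higher). Nothing is read from this because that comparison chose it. Its libraries did not overlap between lines, which was so for 31.8% of the tested genes. No gene passed in edgeR with upper quartile scaling or with a stricter filter on low counts, although 919 and 446 genes were at an unadjusted p under 0.05, and DESeq2 called 381.

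The labels name no batch and mark the second library of a line only as a repeat, so the paired numbers share no stated origin. The library number (first or second) was still treated as a batch, since the libraries differed in depth (32515891 and 32502455 against 16013058 and 16715426 counts) and along GC content, which moved with the CYBA level. The CYBA transcript has 68.1% GC, more than nearly all tested genes (percentile 98.9). In PC9 its second library was lower than its first by a log2(CPM + 0.5) difference of -1.59, and 292 tested genes within 2 percentage points of its GC content had a median of -1.45 (interquartile range -1.75 to -1.08). The median over all tested genes was -0.05. The difference between lines was -7.99 between the first libraries and -7.15 between the second.

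**Figure D1:**
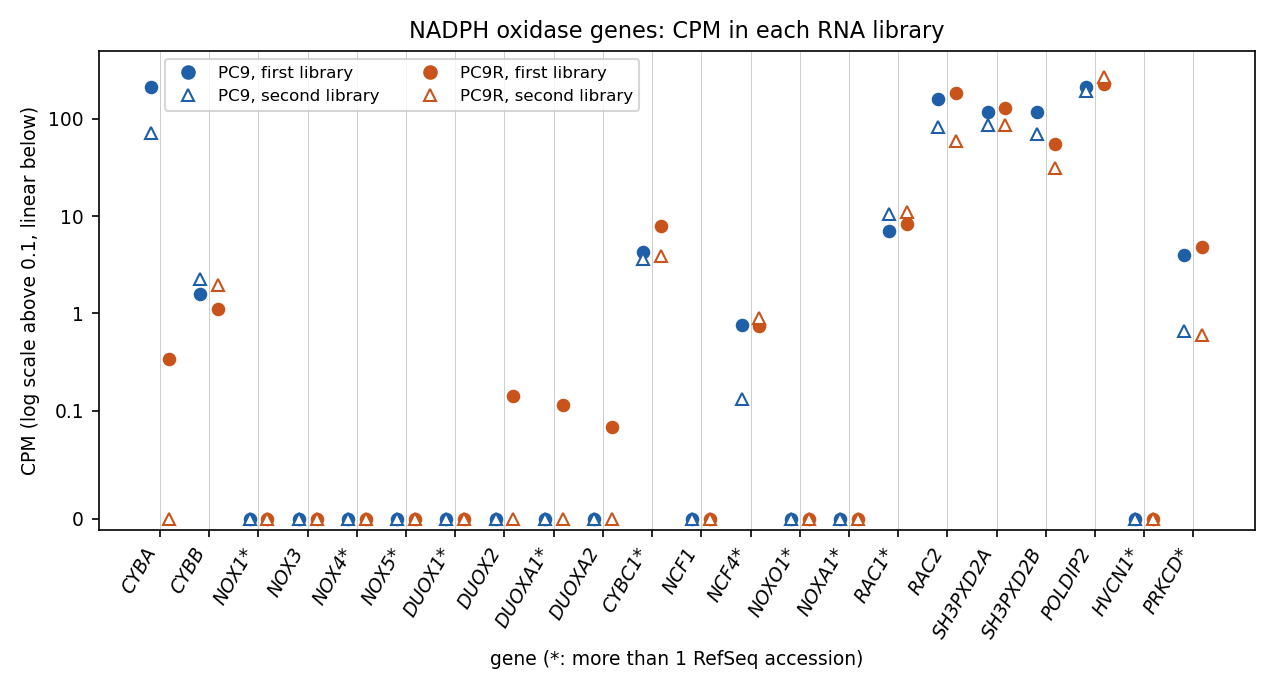
RNA level of the NADPH oxidase genes in each of the 4 libraries, as CPM on an axis that is logarithmic above a small linear range around 0, with 1 point per library. CYBA sits at 213.6 and 70.7 CPM in PC9 and at 0.341 and 0 CPM in PC9R, while the PC9 and PC9R points of CYBB overlap.

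CYBB, the phagocyte catalytic subunit, was near the lower edge of what was tested in both lines. It had 50 and 34 counts in PC9 and 39 and 33 in PC9R, or 1.57, 2.27, 1.11 and 1.96 CPM. The libraries of both lines overlapped. The log2 fold change was -0.32 (SE 0.69), -0.36 (SE 0.35) with a batch term, and the within-batch differences were -0.36 and -0.17. Without the first PC9R library the log2 fold change was 0.044 and without the second it was -0.79.

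DUOX2, a dual oxidase that releases hydrogen peroxide, was found in a single library. It had 0 counts in both PC9 libraries and in the second PC9R library, and 5 counts (0.142 CPM) in the first PC9R library. DUOXA1 and DUOXA2, the maturation factors of the dual oxidases, showed the same layout with 4 and 3 counts in that library and 0 elsewhere. For DUOX2 and DUOXA2, which have 1 RefSeq accession each, a count of 0 over both PC9 libraries allows up to 0.0640 CPM. Levels of this size are at the limit of these depths. DUOXA1 was counted over 6 accessions, so its 0 sets no such bound.

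NOX1, NOX4 and DUOX1 were listed at 0 in all 4 libraries. Each has several RefSeq accessions, 8 together, and the deposited counts of such genes cannot be read as low expression. The 8198 genes with several accessions were 33.3% of all genes but held 6.74% to 7.07% of a library's counts. RAC1, a GTPase gene that nearly all cells express, was at 7.08 to 11.05 CPM with 0 counts on 1 of its 2 accessions, and RELA, STAT3 and SP1, genes of widely expressed transcription factors, were listed at 0. Of all genes, 27.6% were at 0 in every library, 25.5% of those with several accessions and 28.6% of those with 1. CYBA, CYBB and DUOX2 have 1 accession each.

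Per kilobase of transcript, CYBA stood at the head of the single-accession oxidase genes in PC9 and near the foot in PC9R. Its mean was 205 CPM per kb in PC9 (309 and 102), followed by the GTPase gene RAC2 at 82.5 (109 and 56.0) and POLDIP2, whose product binds p22phox, at 75.9 (78.9 and 72.8). The CYBA and RAC2 libraries overlapped, as did those of RAC2 and POLDIP2. SH3PXD2B and SH3PXD2A, which encode the organizer proteins TKS4 and TKS5, followed at 12.0 and 8.85 CPM per kb and overlapped each other, and CYBB was at 0.448. In PC9R CYBA was at 0.247 CPM per kb (0.493 and 0) and overlapped CYBB, at 0.359 (0.260 and 0.459).

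At the CYBA TSS, H3K4me2 was found in both lines, but over far fewer bases in PC9R. PC9 had a peak from 1235 to 110 bases upstream and another from 100 to 1678 bases downstream of the TSS, with the authors' scores of 18.2 and 18.8, at percentiles 59.4 and 60.2 of the PC9 list. PC9R had a peak from 705 to 491 bases upstream and another from 806 to 1193 bases downstream, each inside a PC9 peak. Their scores were 4.69 and 5.29, at percentiles 5.94 and 8.55 of the PC9R list. Scores of both lists have no common scale, so only ranks within a list are given.

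Within 2 kb of the TSS, H3K4me2 peaks covered 2705 bases in PC9 and 603 in PC9R, so 22.3% of the covered bases were kept. PC9R peaks covered fewer bases at most genes. Over the 12597 coding genes with at least 1000 covered bases in PC9 the median kept was 64.2% (interquartile range 52.7% to 75.7%). Of these genes 176 (1.40%) were at or below CYBA in the percent kept, and 4.21% lost at least as many bases. Choosing genes by PC9 cover favours losses, so the value was also taken over the 12447 genes with a mean of at least 1000 covered bases over both lines. There the median kept was 64.6%, and 121 genes (0.972%) were at or below CYBA. With 1 library per line and mark, there is no replicate check of this difference. When PC9R was cut to its best-scored peaks, as many as PC9 had, no H3K4me2 peak was left within 2 kb of the CYBA TSS in PC9R. That follows from the low ranks of these peaks in the PC9R list and is no separate check. The choice by mean cover, and the equal numbers for covered bases, were added after seeing the data.

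**Figure D2:**
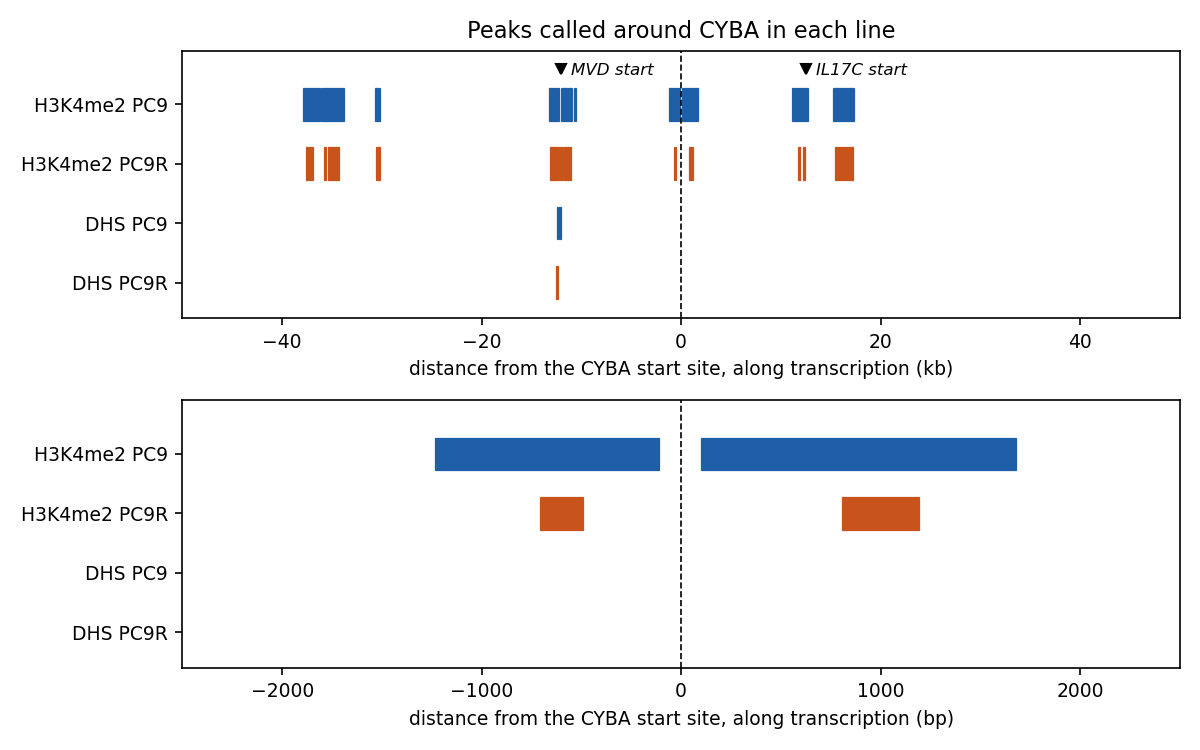
H3K4me2 and DHS peaks of PC9 and PC9R by distance from the CYBA TSS in kb, upstream to the left, with 1 bar per peak drawn to scale. At the TSS the PC9R H3K4me2 peaks are short bars inside the longer PC9 ones. The peak just upstream of the MVD TSS, from 13270 to 12284 bases upstream of CYBA in PC9, has a PC9R peak of like length.

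No DHS peak lay within 1 kb of the CYBA TSS in either line, although CYBA RNA was abundant in PC9. Of the 19853 coding genes, 31.7% had such a peak in PC9 and 42.4% in PC9R. Among the 2502 coding genes at 100 CPM or more in PC9, 40.8% had no DHS peak there in PC9, while 99.1% had H3K4me2. CYBA was thus one of many highly expressed genes with H3K4me2 and no listed DHS at the TSS.

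Farther out, most peaks around CYBA touched a peak of the other line, with fewer bases covered in PC9R. Within 50 kb there were 10 H3K4me2 peaks in PC9 (13108 bp in all) and 12 in PC9R (7121 bp). Of these, 9 of the PC9 peaks and all 12 PC9R peaks overlapped one of the other line by at least 1 bp. At a reciprocal overlap of 50% these numbers were 4 of 10 and 4 of 12. The peak just upstream of the MVD TSS, where the antisense RNA gene SNAI3-AS1 also starts, had scores of 78.4 in PC9 and 82.3 in PC9R. These were at percentiles 95.7 and 98.1 of its list. The PC9 peak over the MVD TSS itself was 1085 bp long and overlapped PC9R peaks of 700 and 282 bp. The DHS peaks within 50 kb, 2 in PC9 and 1 in PC9R, all lay near the start sites of MVD and SNAI3-AS1, from 12501 to 11999 bases upstream of CYBA.

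None of the neighbours of CYBA on chromosome 16 showed an RNA difference of its size. Of the 16 genes with a TSS within 500 kb that were matched in the count tables, 15 were tested. In edgeR 0 passed without and 0 with the batch term (0 and 1 at an unadjusted p under 0.05), against 0.253% and 20.8% of all genes. Their median log2 fold change was -0.05, against -0.01 over all genes tested, and with a batch term it was 0.12. Single genes ran from -1.09 (IL17C) to 1.22 (SNAI3-AS1) without the batch term, both at low counts. On the log2(CPM + 0.5) scale, which shrinks the differences of such genes, the neighbours ran within the first libraries from -0.67 to 0.81 and within the second from -0.58 to 0.88, while CYBA was at -7.99 and -7.15.

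Among the nearest tested genes, MVD, which encodes a decarboxylase of the mevalonate pathway, was at 124 and 39.4 CPM in PC9 and at 138 and 59.4 CPM in PC9R. ZC3H18, an RNA-binding zinc finger gene, was at 351 and 199 CPM in PC9 and at 284 and 215 CPM in PC9R. IL17C, a cytokine gene on the same side of CYBA as ZC3H18, was low, at 1.57 and 0.334 CPM against 0.797 and 0.0594 CPM. For each of these 3 genes, the libraries of the lines overlapped.

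SNAI3, a Snail-family repressor gene, was at 4.89 and 0.800 CPM in PC9 and at 4.81 and 1.07 CPM in PC9R. SNAI3-AS1, its antisense RNA gene, starts beside the MVD TSS and was at 0.533 and 0.267 against 1.31 and 0.594 CPM. Without stated strand the reads of SNAI3 and SNAI3-AS1 cannot be told apart. PIEZO1, a mechanosensitive channel gene, was at 1469 and 417 CPM in PC9 and at 1229 and 425 CPM in PC9R. All 15 tested neighbours were lower in the second library of each line, with median differences of -1.54 in PC9 and -1.21 in PC9R. CYBA was lower in the second PC9 library too.

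**Figure D3:**
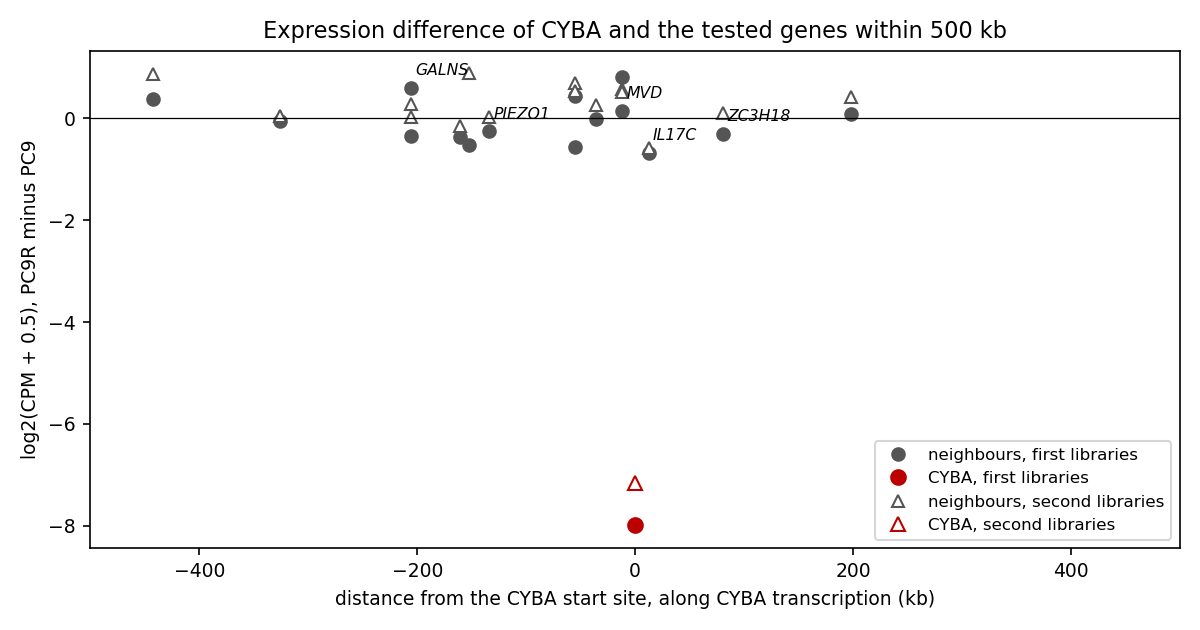
Difference between lines in RNA level (log2(CPM + 0.5), PC9R minus PC9) of CYBA and the tested genes within 500 kb, by distance of their TSS from that of CYBA in kb, with 1 point for the first and 1 for the second libraries. CYBA lies at -7.99 and -7.15, and the neighbours lie between -0.67 and 0.88.

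Fewer bases covered by H3K4me2 in PC9R were also found at most coding neighbours. Of the 16 coding genes within 500 kb, which include ZNF469 but not the antisense gene, 14 had at least 1000 covered bases within 2 kb of the TSS in PC9, and they kept 31.7% to 78.1% of them in PC9R (median 56.6%). These genes are not all separate regions. RNF166 and CTU2 start close together and had the same covered bases (2897 to 1710), as did GALNS and TRAPPC2L (2400 to 1786). MVD kept 78.1%, ZC3H18 73.4% and SNAI3 51.0%. PIEZO1 kept 39.4%, and IL17C was lowest at 31.7%. All 14 stood above the 22.3% of CYBA, while CDT1 lost more bases than CYBA (3725 to 1308). CBFA2T3, with 791 bases in PC9, went the other way to 1265 in PC9R.

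**Figure D4:**
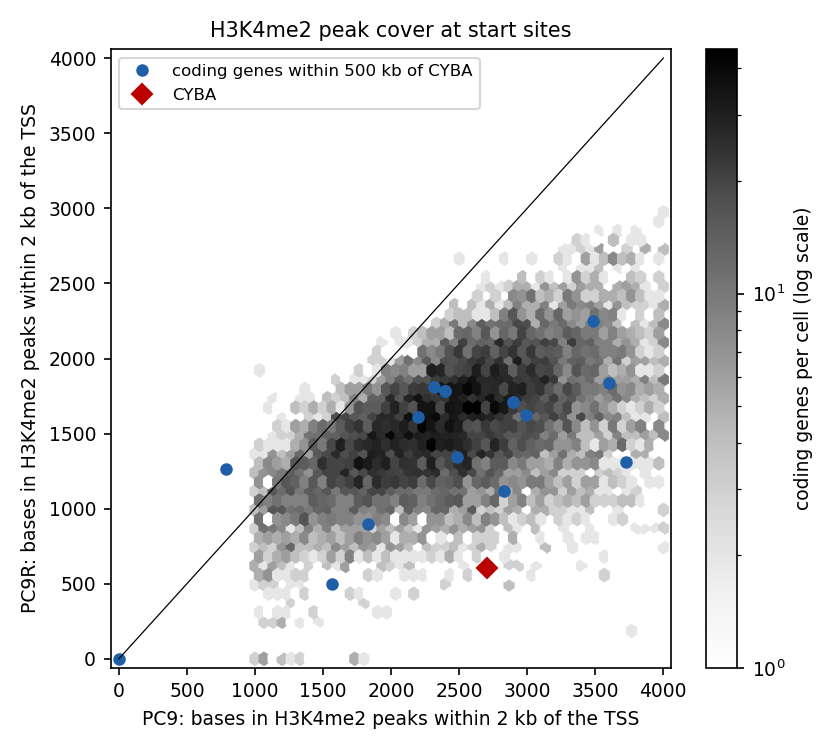
Bases covered by H3K4me2 peaks within 2 kb of the TSS in PC9 (horizontal axis) and PC9R (vertical axis), for the 12597 coding genes with at least 1000 covered bases in PC9 (shaded by number of genes) and for CYBA and its coding neighbours (points, shown at any PC9 value). CYBA, with 2705 and 603 bases, lies below the bulk of the genes with similar cover in PC9. Of its neighbours IL17C (1569 and 497 bases) lies lower on the vertical axis, and PABPN1L has 0 in both lines.

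The other listed genes had no H3K4me2 peak within 1 kb of the TSS in either line, so CYBA was the only member of the 6 with one. Over all coding genes 66.7% had one in both lines, 67.9% in PC9 and 70.8% in PC9R. CYBB had no peak of either mark within 50 kb in either line, which was so for 7.57% of coding genes for H3K4me2 and 12.9% for DHS. NOX4 had no H3K4me2 peak within 50 kb, and a single DHS peak, in PC9R, from 33949 to 34183 bases downstream of its TSS. NOX1 had 1 H3K4me2 peak within 50 kb in PC9 and 3 in PC9R, one of them from 3333 to 3585 bases downstream of its TSS and found in PC9R only, and it had no DHS peak.

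At the DUOX locus on chromosome 15, where DUOX1 and DUOX2 point away from each other with DUOXA1 and DUOXA2 between them, PC9R had more peaks of both marks. A DHS peak of PC9R lay from 704 to 473 bases upstream of the DUOX1 TSS (authors' score 5.51, percentile 46.5 of its list), with none in PC9. DUOX1 was the only one of the 6 genes with a DHS peak at the TSS, and 17.5% of coding genes had one in PC9R only. The peak lies within DUOXA1, which starts from the opposite strand. A second DHS peak of PC9R lay from 9452 to 9625 bases downstream, within DUOX1.

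Within 50 kb of DUOX1 there were 3 H3K4me2 peaks in PC9 and 10 in PC9R, of which 7 overlapped no PC9 peak. For DUOX2 the counts were 2 and 9, again with 7 not shared, and both windows hold mostly the same peaks. The highest-scored of those 7 lay from 8133 to 7688 bases upstream of DUOX1, at percentile 54.98 of the PC9R list, and the lowest was at percentile 2.60. More H3K4me2 peaks in PC9R than in PC9 were found around 58.6% of all coding genes, and more DHS peaks around 61.7%, so the direction by itself was the common one. With PC9R cut to as many peaks as PC9, 4 H3K4me2 peaks were left within 50 kb of DUOX1 and 3 of DUOX2. No DHS peak was left near either gene. These counts follow from the ranks of the peaks in the PC9R lists.

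**Figure D5:**
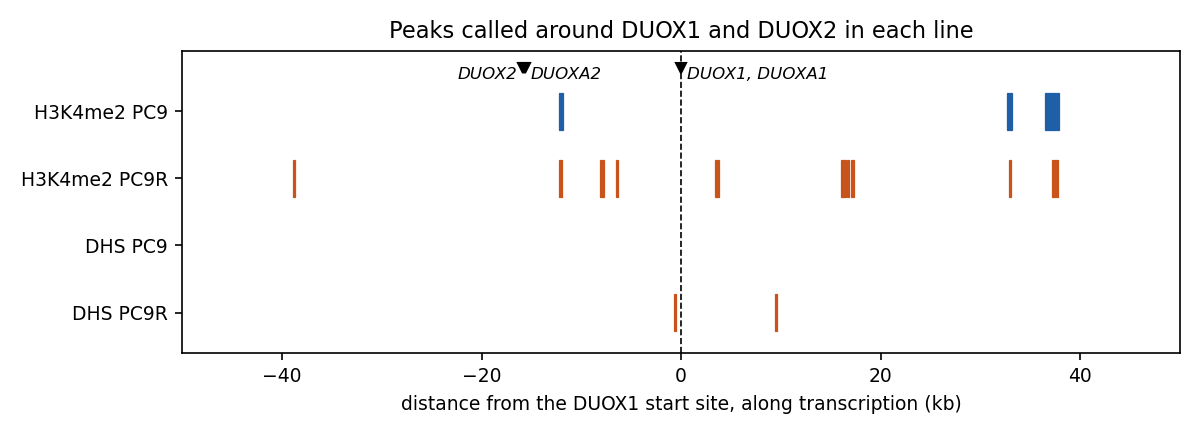
H3K4me2 and DHS peaks of PC9 and PC9R around DUOX1 and DUOX2, by distance from the DUOX1 TSS in kb, with 1 bar per peak drawn to scale. PC9R has 10 H3K4me2 peaks within 50 kb of DUOX1 against 3 in PC9, and 2 DHS peaks against none.

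Among the neighbours of DUOX1 and DUOX2, 6 of 14 were tested and 0 passed in edgeR (2 at an unadjusted p under 0.05), with a median log2 fold change of 0.36. With a batch term B2M and GATM passed as higher in PC9R. GATM passed the filter on low counts only through PC9R, and it is included in the 6 tested, in their median and in the 2 that passed. Nothing is therefore read from these values, and the number that passed is not set against the share over all genes. B2M, the light chain gene of class I antigen presentation, was at 247 and 485 CPM in PC9 and at 732 and 1015 CPM in PC9R. GATM, a gene of creatine synthesis, had 0 counts in PC9 and 15 and 19 counts in PC9R, at least 10.2-fold higher with a floor of 3 counts over both PC9 libraries. GATM also had H3K4me2 within 1 kb of its TSS in PC9R only, as 4.12% of coding genes did.

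Apart from CYBA, no tested gene of the oxidase machinery passed in the main test, which only 0.253% of all genes tested passed. At so low a share, 0 among a few genes is not read as a result about them. In the same edgeR test 921 of the 12660 genes were at an unadjusted p under 0.05. The remaining 17 genes of the fixed list of oxidase subunits and partners had 8 tested members, of which 0 passed in edgeR (0 at an unadjusted p under 0.05), with a median log2 fold change of 0.18. With a batch term 1 of the 8 passed, against 20.8% of all genes tested (9.57% lower), and it was SH3PXD2B, lower in PC9R. Of the other 9, 6 were listed at 0 in all libraries: NOX3 and NOX5 (catalytic), NCF1, NOXO1 and NOXA1 (organizers and activators) and the proton channel gene HVCN1. NCF1 also has near-identical pseudogene copies, so its reads may be split.

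SH3PXD2B, whose product TKS4 can organize the NOX1 complex and takes part in podosome formation, was at 117 and 69.4 CPM in PC9 and at 55.5 and 31.6 CPM in PC9R. Both PC9 libraries were above both PC9R libraries. The log2 fold change was -1.09 (SE 0.60, adjusted p = 0.863 in edgeR), and SH3PXD2B fell in the batch-term fit (-1.10, SE 0.20, adjusted p = 0.0081 in edgeR). Its paralog SH3PXD2A (TKS5) was at 117 and 86.8 CPM in PC9 and at 128 and 86.6 CPM in PC9R, with overlapping libraries.

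RAC2, the GTPase of the phagocyte oxidase, was at 161 and 82.5 CPM in PC9 and at 184 and 58.9 CPM in PC9R, and its libraries overlapped. POLDIP2 was at 210 and 194 CPM against 226 and 269 CPM, without overlap, and did not pass in the batch-term fit (0.29, adjusted p = 0.323 in edgeR). CYBC1, a chaperone gene for the CYBA and CYBB heterodimer, was at 4.33 and 3.60 CPM against 7.88 and 3.86 CPM, counted over 12 accessions.

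NCF4, the p40phox gene, was at 0.752 and 0.133 CPM in PC9 and at 0.740 and 0.891 CPM in PC9R. PRKCD, a kinase gene whose product phosphorylates cytosolic subunits, was at 3.95 and 0.667 CPM against 4.81 and 0.594 CPM, so its libraries differed within a line far more than between lines.

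No tested gene that removes superoxide or peroxide passed in the main test, against 0.253% of all genes tested. Of 25 listed, 23 were tested and 0 passed in edgeR (0 at an unadjusted p under 0.05), with a median log2 fold change of 0.15. With a batch term 5 of the 23 (21.7%) passed, near the 20.8% of all genes, 3 higher and 2 lower. Higher were SOD3, the extracellular superoxide dismutase gene (9.09 and 2.80 CPM in PC9, 35.4 and 7.01 in PC9R), CAT, the catalase gene, and GPX3, the secreted glutathione peroxidase gene. CAT was at 119 and 151 CPM in PC9 and at 300.0 and 275 CPM in PC9R, and its batch-term difference on the log2 scale was 1.10 (SE 0.20, adjusted p = 0.00808 in edgeR). Lower were PRDX2, a cytosolic peroxiredoxin gene (691 and 294 against 313 and 162 CPM), and TXNRD2, the mitochondrial thioredoxin reductase gene. In CAT and GPX3 the libraries of the lines did not overlap, while in SOD3, PRDX2 and TXNRD2 the first library of one line overlapped the range of the other line.

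Of 14 genes that supply NADPH, the electron donor of the oxidases, 11 were tested. In edgeR 0 passed, against 0.253% of all genes tested (0 at an unadjusted p under 0.05). Their median log2 fold change was -0.14 (-0.52 to 0.52 when 1 library was left out). With a batch term 3 of the 11 (27.3%) passed, not far from the 20.8% of all genes. ME1, the cytosolic malic enzyme gene, fell, from 441 and 703 CPM in PC9 to 208 and 345 CPM in PC9R (-1.05, SE 0.18, edgeR adjusted p = 0.00558). NNT, the mitochondrial transhydrogenase gene, fell from a low level, 3.04 and 1.87 CPM to 1.20 and 0.594 CPM. IDH1, the cytosolic isocitrate dehydrogenase gene, passed as higher, at 32.8 and 15.3 CPM in PC9 and 89.5 and 29.1 CPM in PC9R. The libraries of the lines overlapped for IDH1, but not for ME1 and NNT. The called members thus went in both directions. IDH1 and NNT, like TXNRD2, have several accessions, so their changes compare only the reads counted.

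Of 16 transcription factors known to act on oxidase genes, 9 were tested. In edgeR 0 passed, against 0.253% of all genes tested (1 at an unadjusted p under 0.05). Their median log2 fold change was 0.21. With a batch term 2 of the 9 (22.2%) passed, near the 20.8% of all genes tested. Both, IRF1 and GATA6, were higher in PC9R, as were 11.2% of all genes tested. IRF1, an interferon-induced factor that acts on CYBB in phagocytes, was at 13.1 and 8.14 CPM in PC9 and at 49.1 and 20.0 CPM in PC9R. GATA6, a factor of endoderm-derived epithelia, was at 14.5 and 11.5 CPM against 28.5 and 29.8 CPM. In both genes the PC9R libraries were above the PC9 libraries.

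The 5 tested genes whose levels were most like those of CYBA over the 4 libraries were MAGEA3, TNC, NR2F1, MUC5B and TPM2. Likeness was the Euclidean distance of log2(CPM + 0.5) after subtracting each gene's mean, and it ran from 1.81 (MAGEA3) to 3.05 (TPM2) against a median of 7.71 over 12659 genes. MAGEA3, a cancer-testis antigen gene whose reads may be shared within its family, was at 42.1 and 42.8 CPM in PC9 and had 1 count in each PC9R library. TNC, a matrix glycoprotein gene, was at 137 and 215 CPM in PC9 and at 0.171 and 0.475 CPM in PC9R.

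NR2F1, a nuclear receptor gene, was at 66.3 and 37.6 CPM against 0.882 and 1.49 CPM. MUC5B, an airway mucin gene of high GC content, was at 495 and 133 CPM against 19.0 and 1.37 CPM. Like CYBA, MUC5B was lower in the second library of both lines, and TNC was higher in the second library of both. TPM2, a tropomyosin gene counted over 2 accessions, was at 65.4 and 44.9 CPM against 1.76 and 1.60 CPM.

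Markers of the cells in which these oxidases are best known were low in both lines. Of 11 phagocyte markers, 4 (ITGAM, FCGR3A, SPI1 and AIF1) were at 0 in all libraries, and the summed level was 14.1 and 14.5 CPM in PC9 and 27.4 and 19.4 CPM in PC9R, mostly CSF1R and CD68. PTPRC, the pan-leukocyte marker, had at most 1 count in a library. Whether such cells bear on the CYBA level was not tested. Of 3 thyroid markers 1 was at 0 and the sum was 0.370 to 0.600 CPM, and of 3 colon markers 1 was at 0 and the sum was at most 0.455 CPM. Several of these markers have several accessions, so their 0 is subject to the limit given for NOX1.

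All 7 epithelial markers were detected in both lines, with summed levels of 25181 and 11093 CPM in PC9 and of 20091 and 11496 CPM in PC9R. The 3 lung adenocarcinoma lineage markers had sums of 0.400 to 2.28 CPM, and NKX2-1 had 1 count in 1 library. NAPSA, the one with a single accession, was at 0.909 and 0.400 CPM in PC9 and at 2.02 and 0.713 CPM in PC9R, a low but detected level. NKX2-1 and SFTPB have 2 accessions each, so their values are not read as low expression.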

How the data were processed

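RNA, DHS and H3K4me2 samples of PC9 and PC9R were grouped by line and assay from their titles. The authors deposited raw counts for each RefSeq accession, and for each peak a score of unstated scale, used here only within its list. Per the submitters' processing notes, MACS2, TopHat, HTSeq, DESeq and build hg19 were used; versions, the peak threshold, strand use and the handling of shared reads were not given in the sources used here.

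Counts were summed per gene after 41556 of 42811 accessions matched the RefSeq table of GRCh38.p14, used for names only. Positions, lengths and GC content came from GENCODE 44 on GRCh37 (hg19). Total counts per library are given with the results. The test was the edgeR 4.0.16 quasi-likelihood F test in R 4.3.3 (TMM, filterByExpr, two-sided, Benjamini-Hochberg adjusted p under 0.05), with no batch term. Standard errors are the log2 difference over the square root of F. The batch-term fit has 1 residual degree of freedom, so it borrows spread across genes. The scripts were tested on simulated data.

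A peak counted as at the TSS when it overlapped the 1 kb on either side of the canonical TSS, and as shared at an overlap of 1 bp. Peaks have 1 library per line and no test.

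The genes and lists were chosen with earlier results of these data known. Of the listed partners, 1 is not reported here. Named genes were the 6 genes, their listed partners, up to 4 called members per direction of each other list in either fit (else the 2 highest), the 2 nearest tested genes on each side of CYBA, MVD and SNAI3, and the 5 genes most like CYBA. Alternatives were other scalings and filters, the batch term, leaving out each library, DESeq2 1.42.0, limma-voom (limma 3.58.1), single accessions, and other windows, overlaps and peak numbers.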

Additional observations from a re-analysis of the deposited data

How the results depend on the processing

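CYBA kept its direction in every RNA alternative run, but it was listed for this difference in the same libraries, so this is not support. Its fitted log2 fold change ran from -14.56 without the first PC9R library to -8.44 without the first PC9 library. The value of -14.56 rests on 0 counts in the PC9R library that was left, so it has no meaning as a size. Against 32 genes called, upper quartile scaling and the stricter filter gave 0, no filter 440, DESeq2 381, limma-voom 73, and leaving out 1 library 83 to 254, the line left with 1 library being assumed to vary like the other. With the replicate block 2631 genes passed. The libraries share only a number, with 2 pairs, and the differences between second and first library had a correlation of 0.82 across genes between PC9 and PC9R. The biological coefficient of variation was 0.498 without and 0.180 with the block. With the replicate block, 1 of 8 oxidase partners passed (12.5%), as did 5 of 23 genes of superoxide and peroxide removal (21.7%). For NADPH supply it was 3 of 11 (27.3%) and for transcription factors 2 of 9 (22.2%), against 20.8% of all genes tested. Without the block each of these lists had 0, against 0.253% of all genes tested. The 2 DUOX neighbours that passed are not set against these shares, because GATM passed the filter on low counts only through PC9R.

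Leaving out 1 library, the median over the CYBA neighbours ran from -0.93 to 1.32, and that over the DUOX neighbours, GATM included, from 0.47 to 1.51. For the oxidase partners it ran from -0.13 to 0.45, for NADPH supply from -0.52 to 0.52, for superoxide and peroxide removal from 0.060 to 0.16 and for transcription factors from 0.064 to 0.61. Some values that were called in no edgeR fit changed sign, while those of POLDIP2, NCF4 and SNAI3-AS1 did not in any fit that tested them. RAC2 (main 0.0021) was at -0.0187 with RLE scaling, -0.0203 with no filter, -0.137 with the replicate block, -0.0187 with DESeq2 and -0.126 with limma-voom. Leaving out 1 library, the ranges were -0.79 to 0.044 for CYBB, -1.04 to 0.59 for RAC2, -0.036 to 0.98 for CYBC1, -0.13 to 0.42 for RAC1, -0.23 to 0.32 for SH3PXD2A, -1.97 to 2.02 for PRKCD, -1.14 to 0.98 for PIEZO1, -0.52 to 0.31 for ZC3H18, -3.92 to 0.43 for IL17C, -0.46 to 1.32 for MVD and -1.43 to 1.87 for SNAI3. The cause was not tested.

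Within 100 kb instead of 50 kb of CYBA there were 3 DHS peaks in PC9R, and 17 H3K4me2 peaks in PC9 and 21 in PC9R. With equal numbers of peaks per list, PC9R had 0 DHS and 7 H3K4me2 peaks within 50 kb of CYBA. It then had 0 of the 6 genes with DHS at the TSS, 0 with H3K4me2 there, and 0% of the CYBA covered bases kept (this last use was chosen after seeing the data). The cut keeps the best-scored peaks, so these values follow from the ranks given above. The share of all coding genes was not computed at this setting, and nothing further is read from these values. At a reciprocal overlap of 50%, 4 of the 10 PC9 and 4 of the 12 PC9R H3K4me2 peaks were shared. With any annotated TSS, 2 of the 6 genes had H3K4me2 in each line, CYBA and DUOX1.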
